A study of Bos taurus and Mus musculus with 16 samples.

Results

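The enzymes that write, copy and erase DNA methylation were followed in embryos whose Tead4 or TEAD4 gene had been targeted by a base editor. The set comprised the DNA methyltransferase genes Dnmt1, Dnmt3a, Dnmt3b and Dnmt3l, the dioxygenase genes Tet1, Tet2 and Tet3, and Uhrf1. A row was taken when its gene symbol, in either letter case, was one of these 8 names. All 8 were found among the 16655 genes of the mouse table and 7 among the 14852 genes of the bovine table, where no row matched DNMT3L, so bovine DNMT3L was not analysed here.

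Polyadenylated RNA was profiled by Smart-seq2, a low-input full-length cDNA method. Mouse morulae, 3.25 days after fertilization, had received as zygotes BE3 mRNA with a Tead4 sgRNA mix (2 edited samples) or BE3 mRNA alone (2 control samples). Bovine blastocysts, 7.0 days after fertilization, had received BE3 mRNA with a TEAD4 sgRNA mix (6 edited samples) or BE3 mRNA alone (6 control samples). BE3 is a cytosine base editor, a Cas9 nickase joined to a cytidine deaminase, and every embryo of both species carried it, so the groups differed by the guides. TEAD4 is a transcription factor of the outer, trophectoderm lineage. The share of edited alleles, the number of embryos per sample, strain and breed were not stated in the labels, and nothing there says that samples came from separate embryo batches, so p-values measure only the spread between these samples.

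Values are reads per gene divided by the sample's size factor, called normalized reads here. Depth was 4386305 and 6109425 reads in mouse edited samples and 4187826 and 3642907 in control samples, and it ran from 817329 to 2259064 in bovine edited samples and from 934078 to 2501592 in control samples. Counting error alone allows up to 3 reads behind a value of 0, which is 2.13 to 3.79 normalized reads in mouse and 1.71 to 5.56 in cattle. The targeted gene followed the labels in mouse, with 57.2 and 76.5 normalized reads of Tead4 in edited morulae against 458 and 519 in control morulae. In cattle TEAD4 spanned 22.6 to 65.6 normalized reads in edited blastocysts (median 37.5) and 61.2 to 125 in control blastocysts (median 92.9), so those groups overlapped, and limma gave an adjusted p of 0.235. A base edit need not remove the transcript, so this level does not measure editing. Across all genes tested by limma at an adjusted p under 0.05, 1742 of 11386 were called in mouse, which is 15.3%, and 1 of 8884 in cattle, which is 0.0113%.

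DNMT1 copies methylation onto the new strand after replication, and UHRF1 recruits it by binding hemimethylated sites. DNMT3A and DNMT3B methylate new sites, and DNMT3L, which has no catalytic activity of its own, stimulates them. The TET enzymes oxidise methylated cytosine, a step towards its removal. In mammals the genome loses much of its methylation between fertilization and the blastocyst, while imprinted regions keep theirs, and new methylation is laid down around implantation. Only RNA was measured, not methylation or protein.

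The catalytic parts of these genes show how the family divides into enzymes and the inactive cofactor, so the coding stretch at the active site is printed for the 7 mouse genes of the methyltransferase and TET families. The stretches are from the GENCODE M21 annotation of GRCm38 (mm10), 5′ to 3′ on the coding strand, and none crosses an intron. Capitals mark the Pro-Cys codons of the active site in Dnmt1, Dnmt3a and Dnmt3b, and the His-x-Asp codons that bind iron in Tet1, Tet2 and Tet3. In Dnmt3l they mark the codons either side of a gap at which 8 codons of Dnmt3a, the Pro-Cys pair among them, had no counterpart in the alignment.
Dnmt1: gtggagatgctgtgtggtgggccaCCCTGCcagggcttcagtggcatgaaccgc
Dnmt3a: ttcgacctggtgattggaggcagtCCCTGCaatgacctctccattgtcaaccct
Dnmt3b: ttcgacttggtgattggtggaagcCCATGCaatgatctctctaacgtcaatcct
Dnmt3l: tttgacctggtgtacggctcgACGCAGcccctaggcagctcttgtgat
Tet1: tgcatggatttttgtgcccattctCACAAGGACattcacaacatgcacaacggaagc
Tet2: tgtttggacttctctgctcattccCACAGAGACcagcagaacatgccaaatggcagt
Tet3: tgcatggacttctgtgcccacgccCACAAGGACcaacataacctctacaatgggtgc
The stretches lie in coding exons at chr9:20911789-20911842 (minus) for Dnmt1, chr12:3902399-3902452 (plus) for Dnmt3a, chr2:153677189-153677242 (plus) for Dnmt3b and chr10:78056863-78056910 (plus) for Dnmt3l. Those of the TET genes, all on the minus strand, lie at chr10:62814442-62814498 for Tet1, chr3:133471346-133471402 for Tet2 and chr6:83373200-83373256 for Tet3. In the translated coding sequences Dnmt3a and Dnmt3b were identical at 56.4% of 750 aligned positions, while Dnmt3l was identical to Dnmt3a at 42.3% of 312 and to Dnmt3b at 39.9% of 313. Dnmt3l was also the shortest, with 421 codons against 908 in Dnmt3a and 860 in Dnmt3b. The TET genes, of 2039, 1920 and 1803 codons for Tet1, Tet2 and Tet3, were identical in pairs at 37.6% to 40.9% of aligned positions.

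In mouse morulae the inactive cofactor gene Dnmt3l fell to 49.9% of its control mean after Tead4 editing, and no other gene of the set passed the test. The active de novo gene Dnmt3a and the dioxygenase genes Tet1 and Tet3 had higher values in both edited samples than in either control sample, and Dnmt1 had lower ones, but none of these differences passed. Dnmt3b, Tet2 and Uhrf1 overlapped between the groups. The count of 1 of 8 called stands beside 15.3% of all tested genes, with 8.38% called lower and 6.92% called higher. At an unadjusted p under 0.05 there were 3 of 8, against 28.6% of all tested genes. Groups did not overlap for 5 of the 8, against 57.8% of all tested genes, which is near the background. The median log2 fold change (edited minus control, of normalized reads + 1) was 0.03 over the 8 genes and -0.005 over all tested genes.

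**Figure D1:**
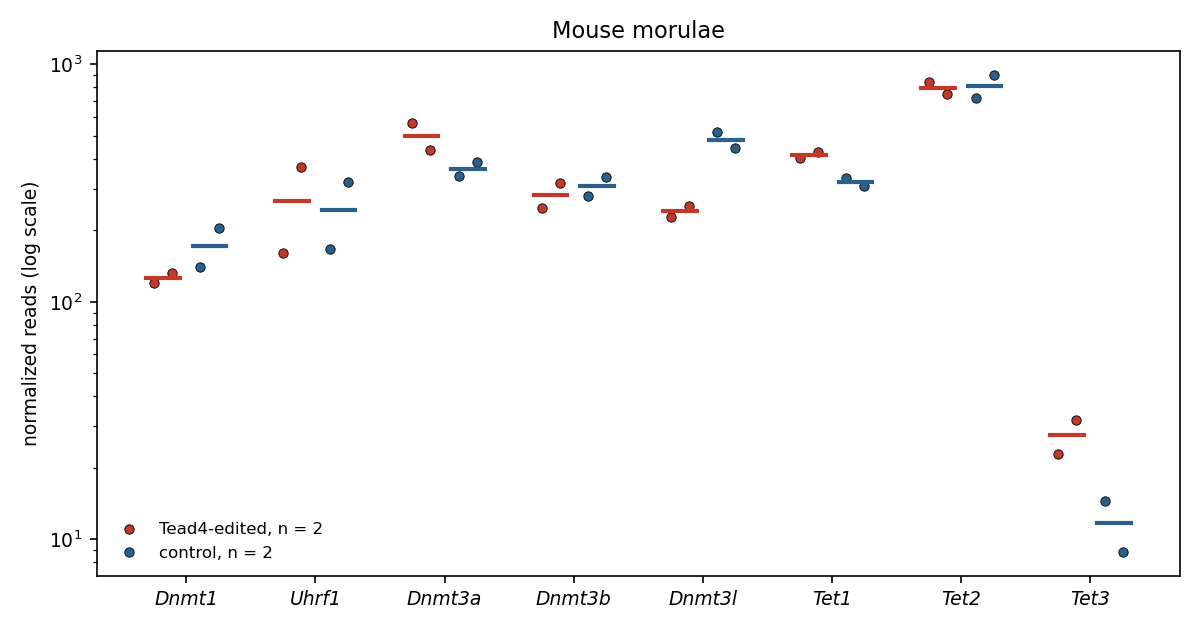
Normalized reads (log scale) of the 8 genes in mouse morulae, with each point a sample, each bar the group mean, and Tead4-edited samples left of control samples. The 2 edited samples had 227 and 254 normalized reads of Dnmt3l, below the 518 and 445 of the control samples, while Uhrf1 had a high and a low sample in each group.

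Among the maintenance genes, Dnmt1 had 120 and 132 normalized reads in edited morulae, against 140 and 205 in control morulae. Both edited samples lay below both control samples, but the gap between the nearest pair was smaller than the gap between the control samples. The means were 126 ± 8.27 in edited and 172 ± 46.1 in control morulae (SD, n = 2 each), a log2 fold change of -0.42 ± 0.26 (SE) with a 95% interval of -0.97 to 0.12 and a limma adjusted p of 0.303. It was -0.70 without control replicate 1, -0.15 without control replicate 2, and -0.25 with samples scaled to the same total without the most abundant feature. Dnmt1 lies at chr9:20907209-20959888 on the minus strand.

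Uhrf1, whose protein guides Dnmt1 to newly copied DNA, had 160 and 371 normalized reads in edited morulae, against 168 and 320 in control morulae. In each group one sample held about as many reads as the low sample of the other group and one as many as the high sample, so the spread lay within the groups. The high samples were replicate 2 of each group. The log2 fold change was 0.07 ± 0.31 (SE) with a 95% interval of -0.55 to 0.70 and a limma adjusted p of 0.904, and it depended on single samples. Without edited replicate 1 it was 0.68 (adjusted p = 0.0479), without edited replicate 2 it was -0.53 (adjusted p = 0.135), and without control replicate 1 it was -0.39 (adjusted p = 0.624). Uhrf1 lies at chr17:56303321-56323486 on the plus strand.

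Dnmt3l (ENSMUSG00000000730.13, chr10:78041947-78063622, plus strand) had 227 and 254 normalized reads in edited morulae, against 518 and 445 in control morulae. Both edited samples lay far below both control samples, with a difference larger than the spread within either group. The means were 240 ± 19.0 in edited and 482 ± 51.8 in control morulae (SD, n = 2 each). The log2 fold change was -0.999 ± 0.21 (SE), with a 95% interval of -1.43 to -0.57 and a limma adjusted p of 0.00174. In the authors' deposited table the log2 fold change of Dnmt3l was -1.003 with a standard error of 0.231 and an adjusted p of 0.000511. The call was lost without control replicate 1, when the log2 fold change was -0.89 and the adjusted p 0.0905. Over the 15 alternatives the adjusted p ran from 3.69e-05 to 0.0905.

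The annotated exons of Dnmt3l share 67 bases with Aire, a gene on the opposite strand, which averaged 3.89 normalized reads over the 4 samples. No source used here gives the strand setting of the counting, so reads of the shared bases cannot be told apart. Their part in the Dnmt3l values was not tested. An annotated copy, Dnmt3l-ps1, had no row, and how reads with several matches were counted is not given in the sources used here.

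Dnmt3a, the de novo enzyme with the printed Pro-Cys codons, had 564 and 437 normalized reads in edited morulae, against 337 and 390 in control morulae. Both edited samples were above both control samples, with the lower edited sample close to the higher control sample. The log2 fold change was 0.45 ± 0.21 (SE), with a 95% interval of 0.03 to 0.87 and a limma adjusted p of 0.143. It passed without edited replicate 2, at 0.64 with an adjusted p of 0.0210, and when each sample was scaled to the same total after removal of the most abundant feature, at 0.62 with an adjusted p of 0.0392. The gene lies at chr12:3806007-3914443 on the plus strand, and its exons share 133 bases with the antisense transcript Dnmt3aos.

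Dnmt3b, the other active de novo enzyme, had 248 and 315 normalized reads in edited morulae, against 279 and 336 in control morulae. The groups overlapped. Its log2 fold change was -0.13 ± 0.22 (SE), with a 95% interval of -0.59 to 0.32 and a limma adjusted p of 0.741. The gene lies at chr2:153649450-153687730 on the plus strand. Thus the cofactor gene and the enzyme genes it serves had log2 fold changes of -0.999 for Dnmt3l, 0.45 for Dnmt3a and -0.13 for Dnmt3b, a contrast between genes that was not tested.

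Tet2 was the member with the most reads in mouse, at 842 and 753 normalized reads in edited morulae, against 721 and 906 in control morulae. The groups overlapped completely, with both edited samples between the control samples. Its log2 fold change was -0.02 ± 0.18 (SE), with a 95% interval of -0.40 to 0.36 and a limma adjusted p of 0.957. The gene lies at chr3:133463679-133545139 on the minus strand, where its exons share 43 bases with the antisense transcript Gm42567.

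Tet1 had 404 and 428 normalized reads in edited morulae, against 332 and 309 in control morulae. Samples of a group were close to each other, and both edited samples were above both control samples. The log2 fold change was 0.38 ± 0.20 (SE), with a 95% interval of -0.04 to 0.80 and a limma adjusted p of 0.225, and it stayed between 0.30 and 0.55 over the 15 alternatives without passing. Tet1 lies at chr10:62804570-62908996 on the minus strand.

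Tet3, the dioxygenase known from the mouse oocyte and zygote, was scarce, with 22.9 and 31.9 normalized reads in edited morulae, against 14.5 and 8.85 in control morulae. These values rest on 24 and 45 reads in edited samples and on 13 and 7 in control samples. Both edited samples were above both control samples. Its log2 fold change was 1.18 ± 0.56 (SE), with a 95% interval of 0.03 to 2.33 and a limma adjusted p of 0.164. Tet3 lies at chr6:83362373-83459084 on the minus strand.

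Per kilobase of annotated exon, Dnmt3l was the highest in both groups and Tet3 the lowest. The length used joins all annotated exons of a gene, from 2.99 kilobases for Dnmt3l to 16.9 for Tet2. Where the transcripts present are shorter than that, the level is understated, so the order depends in part on annotation. Edited morulae averaged 80.4 normalized reads per kilobase for Dnmt3l, 62.3 for Uhrf1, 55.2 for Dnmt3b, 47.3 for Tet2, 30.1 for Dnmt3a, 26.9 for Tet1, 17.1 for Dnmt1 and 1.64 for Tet3. Control morulae averaged 161 for Dnmt3l, 60.3 for Dnmt3b, 57.2 for Uhrf1, 48.2 for Tet2, 23.4 for Dnmt1, 21.8 for Dnmt3a, 20.7 for Tet1 and 0.700 for Tet3. Sample ranges of neighbours in this order did not overlap between Dnmt3l and Dnmt3b in control morulae, whereas in edited morulae the 75.9 to 84.9 of Dnmt3l lay within the 37.6 to 87.0 of Uhrf1. Levels of Dnmt3b, Uhrf1 and Tet2 overlapped from neighbour to neighbour in both groups, as did those of Dnmt1, Dnmt3a and Tet1 in control morulae. In edited morulae Dnmt1 stood below Tet1 with no overlap.

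**Figure D2:**
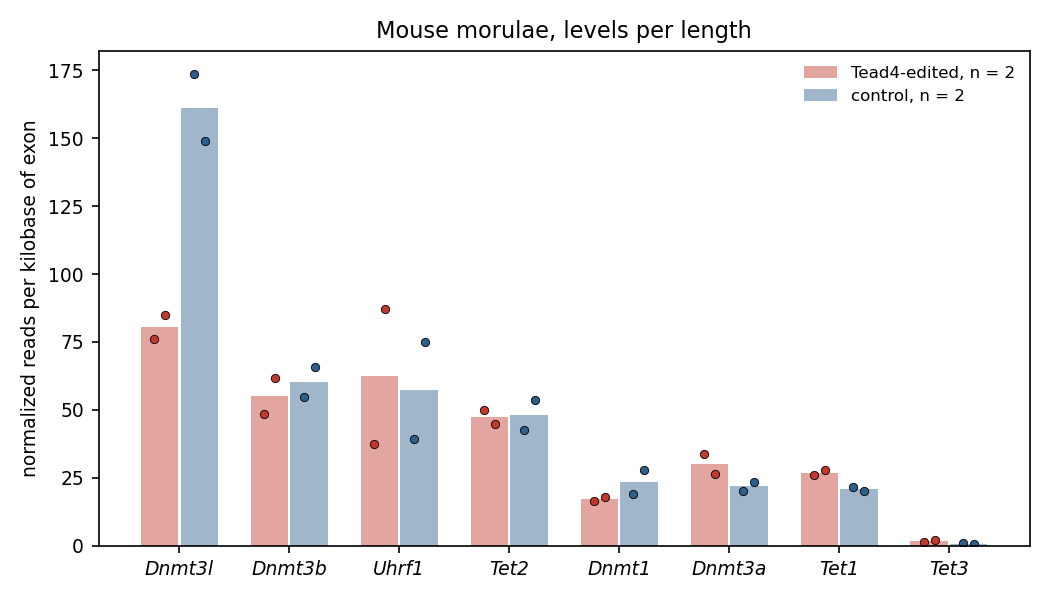
Normalized reads per kilobase of exon in mouse morulae, with bars for group means, points for the 2 samples of each group, and Tead4-edited left of control. Dnmt3l averaged 80.4 in edited and 161 in control morulae, and Tet3 was near the axis in both.

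Markers of the embryo's cell types moved in the same mouse samples, where 8.38% of all tested genes were called lower and 6.92% higher. Of the 6 trophectoderm markers 5 fell, and their summed level was 1970 to 2182 normalized reads in edited morulae and 6628 to 7626 in control morulae. Tead4, the targeted gene, is one of them, and without it 4 of 5 fell, with sums of 1894 to 2124 in edited and 6169 to 7107 in control morulae. Of the 5 inner cell mass and epiblast markers 2 rose, Pou5f1 and Tdgf1, with sums of 2878 to 3535 in edited and 2470 to 2933 in control morulae. Nanog, the most abundant of them, averaged 1311 in edited and 1768 in control morulae (limma adjusted p = 0.122). Sox2 and Klf4, at 1.04 and 0.02 on the log2 scale, did not pass either. Of the 4 primitive endoderm markers 1 rose, the scarce Gata4, with sums of 1342 to 1412 in edited and 1600 to 1706 in control morulae. Most of the primitive endoderm sum was Gata6, which did not pass. In these bulk samples fewer cells of a type and less RNA per cell cannot be told apart, and the part of cell composition in the fall of Dnmt3l was not tested. Oocyte markers summed to 8607 to 9730 normalized reads in edited and 7406 to 7843 in control morulae, with 1 of 5 tested lower, and most of that sum was Khdc3. Of the 9 cumulus and granulosa markers 2 had rows, of the 4 blood markers 2, and of the 6 spermatozoa markers 0, and none of the tested ones passed. Cumulus markers summed to 14.9 to 30.5 in edited and 8.85 to 14.5 in control morulae, and blood markers to 88.6 to 165 in edited and 64.5 to 74.9 in control morulae.

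Transcript length also moved with the fold changes of all mouse genes. When genes were cut into 10 classes of equal size by exonic length, the shortest class had a median log2 fold change of -0.42 and the longest 0.09. Dnmt3l lay in class 4, where the median was -0.02, and Dnmt3a, Tet1, Tet2 and Tet3 in class 10. After the length trend was removed the log2 fold changes were -1.05 for Dnmt3l (limma adjusted p = 0.00237), 0.38 for Dnmt3a, 0.30 for Tet1 and 1.11 for Tet3. Before its removal they were -0.999, 0.45, 0.38 and 1.18, and the part of length in these changes was not tested. With each sample scaled to the same total the median of all genes was 0.12, and 0.16 without the most abundant feature, and the log2 fold change of Dnmt3l was -0.87 and -0.83 under these scalings (limma adjusted p = 0.00480 and 0.00700). The most abundant feature took 4.73% and 7.20% of reads in edited and 2.42% and 3.30% in control morulae.

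**Figure D3:**
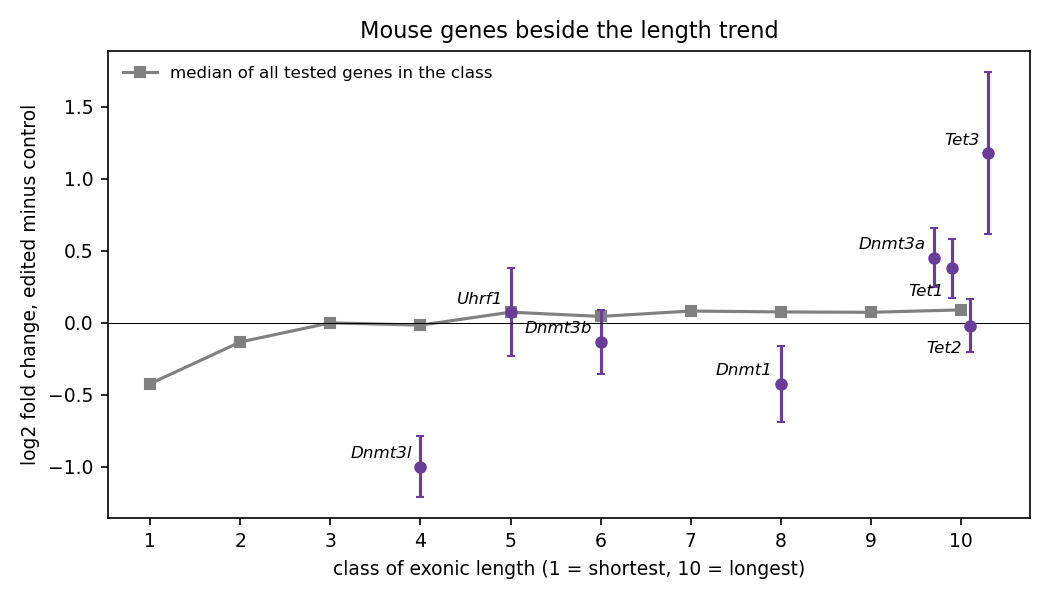
Log2 fold changes (edited minus control) of the 8 mouse genes, with standard errors, against the class of exonic length (1 shortest, 10 longest), beside the median of all tested genes in each class. Dnmt3l, at -0.999, lay far below the class 4 median of -0.02.

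Genes that work with these enzymes were examined in 8 lists, of which 100 of 115 genes were tested in mouse. There were 11 higher and 7 lower in edited morulae, beside 6.92% of all tested genes called higher and 8.38% called lower, and the median log2 fold change was 0.03. Without control replicate 1 the counts were 4 higher and 2 lower, without control replicate 2 they were 5 and 3, and under scaling to the same total without the most abundant feature they were 19 and 4. Of the 18 passing genes, 5 passed under every alternative run, namely Dppa3, Cbx1, Hdac1, Xrcc1 and Tex19.1, and each of the other 13 lost its call under at least 1. The share of all called mouse genes that passed under every alternative was not computed, so these 5 of 18 have no background beside them.

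Partners of maintenance methylation held 1 higher and 1 lower of 9 tested. Beside this list and each list below, 6.92% of all tested genes were called higher and 8.38% lower. Dppa3, an oocyte-derived protein that in mouse shields the maternal genome from Tet3 and displaces Uhrf1, had 14090 and 12775 normalized reads in edited morulae, against 30357 and 24594 in control morulae. Both edited samples lay well below both control samples, with a log2 fold change of -1.03 ± 0.16 (SE) and a limma adjusted p of 8.89e-05. Cdca7, which works with the remodeller Hells, rose by 0.72 on the log2 scale (adjusted p = 0.0352).

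Of the 13 tested genes that protect imprints 1 fell, the histone methyltransferase gene Ehmt2, with a log2 fold change of -0.73 (limma adjusted p = 0.0267). Of the 13 tested genes listed under guidance of de novo methylation 2 rose and 1 fell. A place in this list does not mean that a gene promotes such methylation. Cbx1, which encodes a heterochromatin protein, had 251 and 313 normalized reads in edited morulae, against 592 and 684 in control morulae, a log2 fold change of -1.18 ± 0.20 (SE) and an adjusted p of 0.000262. The deacetylase gene Hdac1 rose by 0.997 on the log2 scale (adjusted p = 0.000219) and Kdm2b, whose protein binds unmethylated CpG islands, by 0.66 (adjusted p = 0.0257). Of the 7 tested genes listed as methyl-CpG readers 0 passed, with 0 by edgeR and DESeq2. That list was drawn up by gene family, so not every gene in it need bind methylated sites. Counts of 1 higher came from robust limma, the replicate block, a pseudocount of 5, both same-total scalings and the omission of edited replicate 2. At an unadjusted p under 0.05 there were 2, Mbd5 and Mbd2, named after their values were seen.

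Among 15 tested TET partners and base excision repair genes 2 rose and 2 fell, beside 6.92% and 8.38% of all tested genes. Tdg, the glycosylase that removes oxidised methylcytosine, had 8.58 and 8.51 normalized reads in edited morulae, against 40.2 and 24.0 in control morulae, with a log2 fold change of -1.75 ± 0.58 (SE) and a limma adjusted p of 0.0386. Both edited samples lay below both control samples, at a low level. Gadd45b, a stress-response gene, fell by 1.30 on the log2 scale (adjusted p = 0.0388). The repair scaffold gene Xrcc1 rose by 1.07 (adjusted p = 0.000281), and the uracil glycosylase gene Ung, which falls outside the naming rule and was named after its values were seen, rose by 0.92 (adjusted p = 0.000924).

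Of the 18 tested genes of the methyl donor cycle 3 rose and 0 fell, beside 6.92% and 8.38% of all tested genes. Mat2a, which makes the methyl donor S-adenosylmethionine, had 2021 and 2088 normalized reads in edited morulae, against 1237 and 1288 in control morulae, a log2 fold change of 0.70 ± 0.16 (SE) and a limma adjusted p of 0.00435. Both edited samples were well above both control samples. Bhmt, which remakes methionine from homocysteine, rose by 0.69 (adjusted p = 0.00578), and Mthfd1l, a mitochondrial one-carbon enzyme gene, by 1.32 (adjusted p = 0.0230). Genes that supply alpha-ketoglutarate, the TET cosubstrate, gave 1 higher and 2 lower of 9 tested, with Glud1 at 0.80 (adjusted p = 0.00906), Idh3a at -1.02 (adjusted p = 0.00279) and Idh3g at -0.75 (adjusted p = 0.00871).

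Germline genes restrained by promoter methylation in mouse gave 2 higher and 0 lower of 16 tested, beside 6.92% and 8.38% of all tested genes. Tex19.1, a germline and placental gene that represses transposons, had 2141 and 2204 normalized reads in edited morulae, against 849 and 778 in control morulae, with a log2 fold change of 1.42 ± 0.17 (SE) and a limma adjusted p of 2.21e-06. Both edited samples lay far above both control samples. Mael, a piRNA-pathway gene, rose by 0.80 (adjusted p = 0.0278).

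In bovine blastocysts no gene of the set passed the test after TEAD4 editing, and every gene of the set overlapped between the groups. The count was 0 of 6 tested, beside 0.0113% of all tested genes called by limma, and edgeR and DESeq2 gave 0 as well. At an unadjusted p under 0.05 limma gave 0 of 6, beside 5.88% of all tested genes. Groups did not overlap for 0 of 7, beside 0.248% of all tested genes. The median log2 fold change was -0.06 over the tested 6 and 0.01 over all tested genes. The lowest adjusted p was 0.792, and the intervals given for each gene show which sizes of change the data allow.

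**Figure D4:**
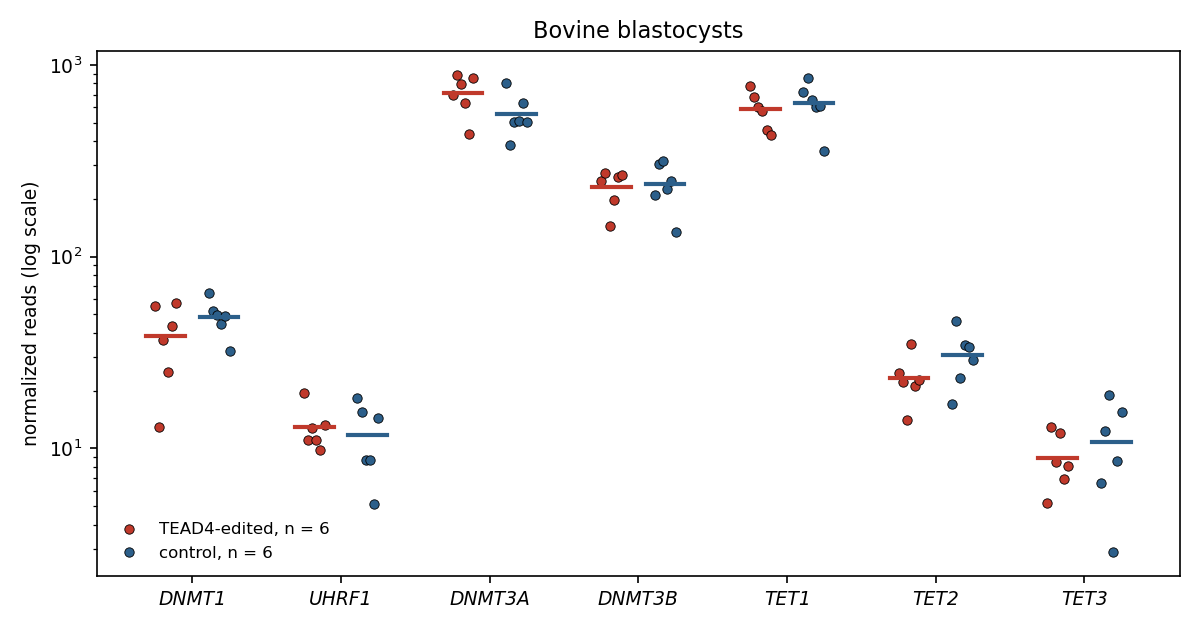
Normalized reads (log scale) of the 7 genes found in bovine blastocysts, with each point a sample, each bar the group mean, and TEAD4-edited samples left of control samples (n = 6 each). The groups overlap for every gene, and DNMT1 has 1 edited sample at 12.97, below all the others.

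DNMT1 spanned 12.97 to 57.5 normalized reads in edited blastocysts (median 40.2) and 32.1 to 64.4 in control blastocysts (median 49.3). Its lowest value, in edited replicate 2, rests on 7 reads. The means were 38.5 ± 17.3 in edited and 48.7 ± 10.5 in control blastocysts (SD, n = 6 each), and limma gave a log2 fold change of -0.45 ± 0.30 (SE), with a 95% interval of -1.09 to 0.18 and an adjusted p of 0.795. Without that sample the log2 fold change was -0.18, and the count tests gave -0.29 (edgeR and DESeq2 alike).

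UHRF1 was scarce, with 6 to 30 reads per sample. It spanned 9.76 to 19.4 normalized reads in edited blastocysts (median 11.9) and 5.14 to 18.4 in control blastocysts (median 11.6), so edited and control values were mixed. Limma gave a log2 fold change of 0.19 ± 0.35 (SE), with a 95% interval of -0.53 to 0.92 and an adjusted p of 0.923, and it ran from 0.0014 without control replicate 5 to 0.33 without control replicate 1.

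DNMT3A spanned 434 to 889 normalized reads in edited blastocysts (median 743) and 380 to 804 in control blastocysts (median 507), and 5 of the 6 edited samples lay above the control median. The means were 716 ± 169 in edited and 555 ± 146 in control blastocysts (SD, n = 6 each), with a log2 fold change of 0.37 ± 0.20 (SE), a 95% interval of -0.05 to 0.79 and a limma adjusted p of 0.792. DNMT3B spanned 144 to 272 in edited (median 254) and 134 to 315 in control blastocysts (median 236), with a log2 fold change of -0.03 ± 0.22 (SE) and a 95% interval of -0.48 to 0.42 (adjusted p = 0.983). The edited range of DNMT3B lay within the control range.

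TET1 spanned 431 to 773 normalized reads in edited blastocysts (median 590) and 356 to 849 in control blastocysts (median 632), the edited range again inside the control range. Its log2 fold change was -0.09 ± 0.20 (SE), with a 95% interval of -0.51 to 0.33 and a limma adjusted p of 0.936. TET2 spanned 14.1 to 35.1 in edited (median 22.5) and 17.1 to 46.2 in control blastocysts (median 31.2), and 1 of the 6 edited samples lay above the control median. For TET2 the log2 fold change was -0.36 ± 0.27 (SE), with a 95% interval of -0.92 to 0.21 and an adjusted p of 0.799, and it was closest to 0 without control replicate 2, at -0.23. TET3 spanned 5.19 to 12.97 in edited (median 8.30) and 2.89 to 19.0 in control blastocysts (median 10.4), with 5 to 15 reads per sample, and its mean of 9.87 was below the minimum of 10 for the main test. With no filter on low values limma gave a log2 fold change of -0.11, with a 95% interval of -0.97 to 0.74 and an adjusted p of 0.979.

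The ribosomal RNA feature RN18S1 took 12.5% ± 3.79 of reads in edited and 20.7% ± 9.11 in control blastocysts (SD, n = 6 each), from 9.27% to 19.7% in edited and from 12.4% to 36.6% in control blastocysts. Its part in the bovine values was not tested. With samples scaled to the same total the median log2 fold change of all bovine genes was 0.13, and -0.02 without that feature. Trophectoderm markers summed to 8479 to 21515 normalized reads in edited and 11214 to 21522 in control blastocysts. Most of that sum was KRT8, with means of 10135 in edited and 9056 in control blastocysts, and KRT18, with means of 5090 and 4791. Inner cell mass markers summed to 272 to 635 in edited and 365 to 730 in control blastocysts. CDX2 averaged 7.11 in edited and 9.54 in control blastocysts, below the minimum for testing. Oocyte markers summed to 39.1 to 63.1 in edited and 28.9 to 92.9 in control blastocysts, cumulus markers to 11.02 to 35.2 in edited and 7.99 to 36.5 in control blastocysts. Primitive endoderm markers summed to 369 to 563 in edited and 365 to 631 in control blastocysts, spermatozoa markers to at most 14.01 in edited and 19.9 in control blastocysts, and blood markers to 4.24 to 24.1 in edited and 3.94 to 23.1 in control blastocysts. None of the tested marker genes passed.

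Of the same 8 partner lists 85 genes were tested in cattle and 0 passed, beside 0.0113% of all tested genes. At an unadjusted p under 0.05 there were 4 of 85, beside 5.88% of all tested genes. These 4, named after their values were seen, were HDAC1 at 0.49, MTHFD1L at 0.40, GADD45A at -0.83 and UHRF2 at -0.78 on the log2 scale.

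**Figure D5:**
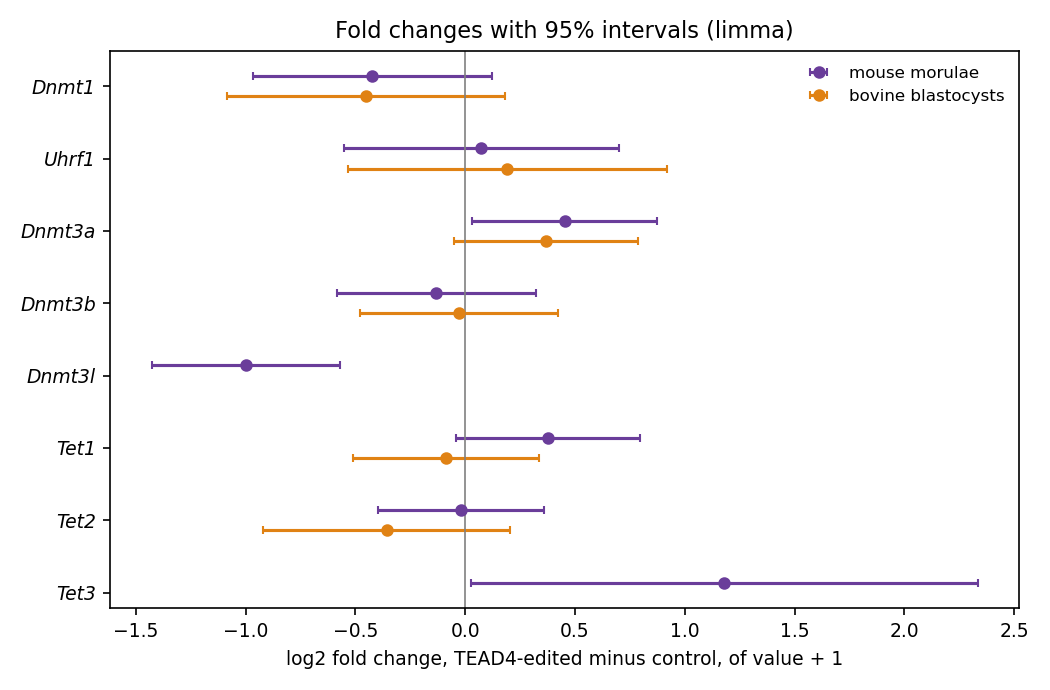
Log2 fold changes of edited minus control samples with 95% limma intervals for mouse morulae and bovine blastocysts. The mouse interval of Dnmt3l, from -1.43 to -0.57, is the furthest below 0, and bovine DNMT3L and TET3 are not drawn, the first having no row and the other lying below the filter on low values.

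Of the genes with 1 symbol tested in both tables, 429 of 7073 differed in fold change between mouse and cattle at an adjusted p under 0.05, which is 6.07%, and none of the 6 members tested in both did. Mouse minus bovine log2 fold changes were 0.03 for DNMT1 (95% interval -0.78 to 0.84), 0.08 for DNMT3A (-0.49 to 0.66) and -0.10 for DNMT3B (-0.73 to 0.52). The DNMT3A values behind that difference were 0.45 in mouse and 0.37 in cattle, neither of which passed. The difference was 0.47 for TET1 (-0.11 to 1.04), 0.34 for TET2 (-0.33 to 0.998) and -0.12 for UHRF1 (-1.05 to 0.81). The lowest adjusted p was 0.352, and these intervals are wide. Species and stage differ together, morula in mouse and blastocyst in cattle, and cannot be told apart.

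Across the 12 bovine samples the 2 genes most like each member on the log2 scale, of 8438 compared, are given as a description with no p. They were picked for the highest r, which raises r, and they share libraries and depth with the member. Spearman rho for these pairs ran from 0.49 (DNMT3B with CPSF7) to 0.97 (TET1 with HYLS1). DNMT1 was most like ADM, which encodes a peptide hormone (Pearson r = 0.96, or 0.80 over the 10 samples left without the 2 farthest from the median), and DHODH, a pyrimidine synthesis gene (0.95, or 0.77). DNMT3A was most like COTL1, an actin-binding protein gene (0.91, or 0.83), and the heme synthesis gene FECH (0.88, or 0.86). TET1 was most like the centriole gene HYLS1 (0.96, or 0.91) and R3HDM1 (0.90, or 0.81). TET2 was most like ZBTB2 (0.89, or 0.77) and ANKRD44 (0.88, or 0.69), and UHRF1 most like MTHFSD (0.87, or 0.77) and PRR14 (0.81, or 0.54). DNMT3B rested most on single samples, with r of 0.81 for ZNF706 and for CPSF7 but 0.42 and 0.28 without the 2 farthest samples.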

How the data were processed

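Smart-seq2 libraries of polyadenylated RNA were sequenced, per the labels' protocols. Tools listed without versions in the submitters' processing notes are Trimmomatic, HISAT2, DESeq2 and featureCounts, and the builds listed are mm10 and ARS-UCD1.2. Per the file headers, the deposited signal values were normalized by the authors, and the steps between low values are those of gene counts divided by one factor for each sample. These deposited tables hold the authors' log2 fold changes, their test statistic (a score, not used) and their p-values. Of the values, 100% came out as whole reads at a tolerance of 0.05 reads. Tables were normalized separately, so groups were compared within a table, and only the resulting fold changes were compared between species.

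Genes with a mean of at least 10 were tested on log2(value + 1) with limma 3.58.1 in R 4.3.3 (trend, two-sided, Benjamini-Hochberg over all tested genes). The added 1 draws fold changes of genes close to 0 towards 0. Alternatives were pseudocounts of 0.5 and 5, no filter and a minimum mean of 50, equal totals, robust limma, a replicate block, each sample left out, removal of the length trend in mouse, and count tests on recovered reads. There edgeR 4.0.16 called 1670 mouse and 1 bovine genes, and DESeq2 1.42.0 called 1354 and 5. Species differences used Satterthwaite degrees of freedom. Replicates differed by more than counting noise, with a chi-square per degree of freedom of 6.86 to 13.7 in mouse and 7.59 to 49.9 in cattle.

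Named genes are all members, and up to 3 passing genes per partner list by size of change. Members and lists were chosen with earlier results of these data known. Of the mouse names 89.0% matched GENCODE M21, which gave positions and exonic lengths. Bovine names (94.3% matched) were read against ARS-UCD2.0, which is another build, so no bovine coordinates are given. Gene annotation, strand setting and treatment of reads with several matches are not given in the sources used here. The limit of 3 reads covers counting error only.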

Additional observations from a re-analysis of the deposited data

Results flagged for a closer look

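In bovine edited blastocysts the highest UHRF1 value was 19.4 normalized reads, in replicate 1, and the next was 13.3. The gap was 0.637 of the group's whole range, above the critical value of 0.625 for 6 samples. The value rests on 30 reads. Of 14 groups examined in this way 1 stood out, and chance gives about 1 in 20.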

How the results depend on the processing

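Over 248 alternatives of the member fold changes, 228 kept direction and side of the threshold. These were 106 of 119 in mouse and 122 of 129 in cattle, and the cause of the other 20 was not tested. Changes of the filter, robust limma and the replicate block return the main fold change, so they could not change direction. In cattle the main limma test called 1 of 8884 genes, and the lowest member adjusted p was 0.792. The kept side of the threshold therefore says little in cattle. Leaving out each sample gave 533 to 2573 mouse genes called and 0 to 2 mouse members called, with 535 genes without control replicate 1 and 533 without control replicate 2. Under these omissions the log2 fold changes ran from -0.70 to -0.15 for Dnmt1, from 0.27 to 0.64 for Dnmt3a, from -0.31 to 0.041 for Dnmt3b, from -1.11 to -0.89 for Dnmt3l, from -0.19 to 0.14 for Tet2 and from -0.53 to 0.68 for Uhrf1. In cattle they ran from -0.60 to -0.18 for DNMT1, from 0.0014 to 0.33 for UHRF1, from -0.51 to -0.23 for TET2, from -0.18 to 0.10 for DNMT3B and from -0.25 to 0.0051 for TET1. Scaling to the same total without the most abundant feature gave 2 mouse members called, with 0.62 for Dnmt3a, 0.040 for Dnmt3b and 0.15 for Tet2. Scaling to the same total gave 0.11 for Tet2, 0.094 for bovine DNMT3B and 0.033 for bovine TET1, and it called 1113 mouse genes higher and 683 lower, against 788 and 954, and 1276 and 611 without the most abundant feature. The median log2 fold change of all tested genes under the same total was 0.12 in mouse and 0.13 in cattle. In mouse it was 0.16 without the most abundant feature. The part of this shift in the members' sign changes was not tested. DESeq2 called 5 bovine genes. The mouse minus bovine difference was -0.016 for DNMT1 with a pseudocount of 5, and with samples left out it ran from -0.25 to 0.30 for DNMT1, from -0.10 to 0.27 for DNMT3A, from -0.28 to 0.068 for DNMT3B and from -0.72 to 0.48 for UHRF1. Where an omission left 1 sample in a mouse group, that sample was assumed to vary like the other group.

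The labels give same-numbered samples no link beyond the number. Correlations of their deviations from the group means were 0.106 in mouse and -0.193 to 0.335 in cattle. With 2 samples per group the mouse deviations mirror each other, so both pairs give the same value. These correlations cannot decide whether samples were prepared in pairs. With the replicate block 1816 mouse genes and 1 bovine gene were called, and no member changed its call (Dnmt3l adjusted p = 0.00274 by limma with the block). Values of Tet3 in mouse and of TET3 and UHRF1 in cattle rest on 5 to 45 reads per sample, and the part of depth in their intervals was not tested.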
